A study of Homo sapiens with 6 samples.

Results

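S100P, AGR2 and the S100A genes S100A2, S100A4, S100A6, S100A10, S100A11, S100A13, S100A14 and S100A16 were followed through 6 RNA-sequencing libraries of 22RV1, an established human prostate carcinoma cell line. The 10 genes were taken by symbol, and 8 of them had a row among the 17811 genes of the table. S100A14 and S100A16 were not analysed here. S100P and AGR2 were picked because their changes in these same libraries were large and opposed, so their differences are given as a description with no test and enter no count of calls. The 6 S100A genes were tested within the whole table.

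Poly(A)-selected RNA was sequenced from cells stably expressing a short hairpin RNA against IMPA1 (shIMPA1), against IMPDH2 (shIMPDH2) or, as the control, against luciferase (shLuc), with 2 libraries per group. All 3 groups are derivatives of the same parent line, carry a hairpin and were grown in RPMI-1640 with fetal bovine serum. IMPA1 releases free inositol from inositol phosphates, and IMPDH2 catalyses the committed step of guanine nucleotide synthesis. Only 1 stable line is named for each group. Whether its libraries stand for separate cultures, or for different hairpins, is left unsaid by the labels, and p-values here cover the spread between libraries and no more, and that spread may be technical. A difference tied to a hairpin or to 1 line cannot be told apart from one tied to the target gene.

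S100 proteins are small calcium-binding proteins built on EF-hand motifs. Most act as dimers that open a binding face when calcium is bound and then dock onto partners such as annexins, myosin or p53, and several are also released from cells and bind the receptor RAGE. AGR2 is a protein disulphide isomerase of the endoplasmic reticulum that helps mucins and other secreted proteins to fold, and it is abundant in secretory epithelia and in many adenocarcinomas, the prostate included.

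S100P lies on chromosome 4 (GRCh38, 6693069 to 6697170, plus strand) and AGR2 on chromosome 7 (16791811 to 16833433, minus strand), as GENCODE release 29 places them. The 6 S100A genes lie on chromosome 1 between 151982915 and 153631360, a stretch of 1.65 megabases with 17 annotated S100A genes, of which 7 were in the table. The 250 bases before the RefSeq start site (GRCh38.p14) are shown for S100P and AGR2, the members picked for their changes, and for S100A6, whose calls against shLuc in shIMPA1 and between the knockdowns held under every alternative tried. The windows are chr4:6693628-6693877 on the plus strand for S100P, chr7:16805000-16805249 on the minus strand for AGR2 and chr1:153535992-153536241 on the minus strand for S100A6, each read from far to near the start. Capitals mark the TATA box and the ATF4 and C/EBP site of S100P and the GC boxes of S100A6, all spelled out after the sequences.
S100P: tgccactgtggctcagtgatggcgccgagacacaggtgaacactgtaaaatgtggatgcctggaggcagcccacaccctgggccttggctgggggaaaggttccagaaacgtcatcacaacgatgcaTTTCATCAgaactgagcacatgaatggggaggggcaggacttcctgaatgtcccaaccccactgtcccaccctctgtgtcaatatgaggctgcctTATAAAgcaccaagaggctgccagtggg
AGR2: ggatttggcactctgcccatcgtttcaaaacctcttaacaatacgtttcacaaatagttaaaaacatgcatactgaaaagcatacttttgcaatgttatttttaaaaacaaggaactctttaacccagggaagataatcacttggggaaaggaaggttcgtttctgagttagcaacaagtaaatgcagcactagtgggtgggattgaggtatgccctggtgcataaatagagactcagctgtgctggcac
S100A6: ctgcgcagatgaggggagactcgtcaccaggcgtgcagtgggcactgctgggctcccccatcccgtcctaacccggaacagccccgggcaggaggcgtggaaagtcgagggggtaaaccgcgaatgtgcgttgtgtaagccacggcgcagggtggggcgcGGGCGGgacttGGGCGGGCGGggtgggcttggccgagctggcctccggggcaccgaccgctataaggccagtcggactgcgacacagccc

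Of 7 motifs chosen with these sequences in view, the S100P window held the TATA box TATAAA, beginning 28 bases before the start on the strand of the gene, and the composite ATF4 and C/EBP site TGATGNAA, read on the opposite strand and beginning 123 bases before the start. TATAAA was present in 6.80% of all 35114 RefSeq windows of that length, and TGATGNAA in 3.14%. The S100A6 window held the GC box GGGCGG 3 times, the last pair overlapping, and 42.6% of windows held at least 1. Other members shared these motifs. TATAAA lay in windows of S100A4 and S100A13, beginning 31 and 29 bases before the start. GGGCGG lay in windows of S100A10, S100A11 and S100A13. For S100A13 the start after that window was not matched in a GENCODE release 29 transcript of the gene. The AGR2 window held none of the 7, which also included CCAAT (32.0% of windows), the forkhead site TGTTTAC (2.98%), the E-box CACGTG (6.35%) and the AP-1 site TGACTCA (4.20%). Among the other members, TGACTCA lay in a window of S100A2 and CCAAT in a window of S100A13. TATAAA was searched on the strand of the gene and the others on both strands. The bases G and C made up 55.6% of the S100P window, 40.4% of the AGR2 window and 70.0% of the S100A6 window, against a median of 58% over all windows. GENCODE annotates further starts upstream of these windows for S100P and AGR2, and a match says only that these letters are present. All 8 members matched the RefSeq table, with 11 windows between them.

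Each value below is a normalised read count: the number of reads on a gene divided by 1 size factor per library. Depth over the listed genes ran from 20828900 to 27773294 reads per library. The targeted genes were lower in their own groups: IMPA1 had 957 and 1101 in shIMPA1, against 1621 and 1331 in shLuc, and IMPDH2 had 2932 and 3166 in shIMPDH2, against 4270 and 5032 in shLuc. These differences were -0.52 and -0.61 on the log2(value + 1) scale (limma adjusted p = 0.0145 and 0.00999), and each lost its call when some libraries were left out (adjusted p = 0.159 for IMPA1 without shLuc 1, and 0.127, 0.115 and 0.0787 for IMPDH2 without shLuc 2, shIMPDH2 1 and shIMPDH2 2). All 11 luminal prostate markers were listed, with summed values of 99234 to 102713 in shIMPA1, 107608 to 114265 in shIMPDH2 and 129825 to 131849 in shLuc. KRT8 was the largest part of each sum. It had 58623 and 52886 in shIMPA1, 40650 and 46452 in shIMPDH2, and 71625 and 63788 in shLuc. None of 5 endothelial markers was listed, nor 6 of 7 leukocyte markers. Library 1 and library 2 of shIMPA1 stood apart in the basal keratins KRT5 and KRT14, and less so in KRT15, as described with S100A2.

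S100P, named for the placenta where it was found, binds ezrin and RAGE. It had 10324 and 13718 in shIMPA1, 1383 and 1639 in shIMPDH2, and 518 and 398 in shLuc. The 3 groups did not overlap, with shIMPA1 highest, shIMPDH2 between and shLuc lowest. Its mean was 12021 ± 2400 in shIMPA1 and 458 ± 85.1 in shLuc (SD, n = 2 each), 26.2-fold higher in shIMPA1 (log2 difference 4.71, SE 0.17). The mean of 1511 ± 181 in shIMPDH2 (SD, n = 2) was 3.30-fold that of shLuc (log2 difference 1.73, SE 0.17). Set against each other, shIMPDH2 was 7.96-fold lower than shIMPA1 (log2 difference -2.98, SE 0.17). In a culture sequenced in bulk, a change in the number of cells that express a gene and a change in its RNA per cell cannot be told apart.

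AGR2 went the other way in both knockdowns. It had 179.5 and 204 in shIMPA1, 268 and 361 in shIMPDH2, and 1146 and 921 in shLuc. Again no 2 groups overlapped, and here shLuc was highest and shIMPA1 lowest. The mean was 192 ± 17.7 in shIMPA1, 315 ± 65.8 in shIMPDH2 and 1033 ± 159 in shLuc (SD, n = 2 each), 5.38-fold lower in shIMPA1 than in shLuc (log2 difference -2.42, SE 0.18) and 3.28-fold lower in shIMPDH2 than in shLuc (log2 difference -1.72, SE 0.18). The shIMPDH2 mean was 1.64-fold that of shIMPA1 (log2 difference 0.70, SE 0.18). Both comparisons with shLuc use the same shLuc libraries, for AGR2 as for S100P.

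**Figure D1:**
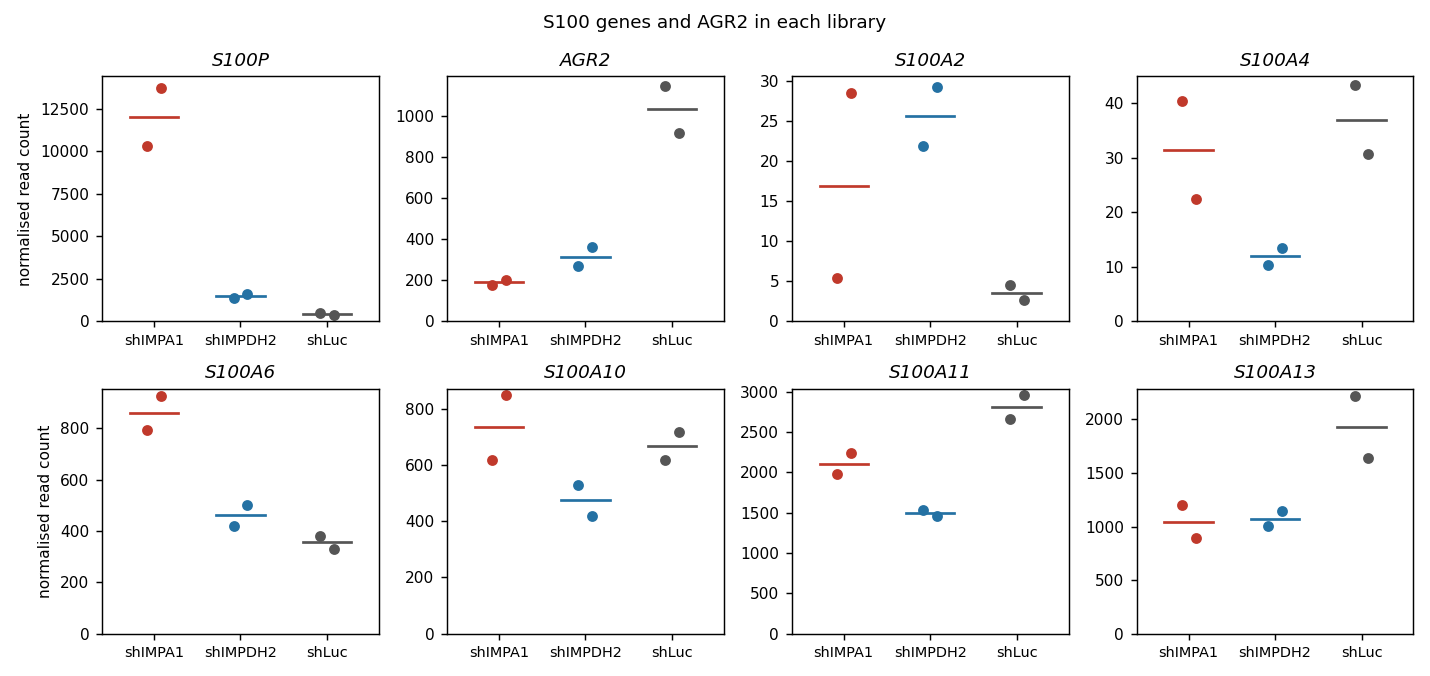
Normalised read count (y axis, from 0, a scale of its own per gene) of each of the 8 genes in the shIMPA1, shIMPDH2 and shLuc libraries. Each point is 1 library and each line the mean of its group; S100P is highest in shIMPA1 (10324 and 13718) and AGR2 highest in shLuc (1146 and 921).

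Of the 6 S100A genes tested, 1 rose and 2 fell in shIMPA1 against shLuc, where 30.2% of the 17742 genes tested were called (14.0% higher and 16.2% lower). In shIMPDH2 against shLuc, 1 rose and 3 fell, where 17.0% of genes were called (7.86% higher and 9.15% lower). In shIMPDH2 against shIMPA1, 4 fell and none rose, where 26.1% of genes were called (13.5% higher and 12.6% lower). Their median log2 fold changes were -0.07, -0.67 and -0.56 in these 3 comparisons, beside medians of 0.02, -0.01 and -0.00 over all genes tested. A call is an adjusted p under 0.05 from limma with Benjamini-Hochberg adjustment over all genes tested. The gene that rose in shIMPDH2 against shLuc, S100A2, met the filter on low values only through libraries where it was high, so its call lends nothing to these counts; 3 of the other 5 genes fell there. With 6 genes, these counts describe the genes and set nothing apart from the rest of the table. Calls over all genes also shift when a library is left out, here and for the gene lists below, by the ranges given under the processing. Left out in turn, single libraries moved the counts to between 1 and 5, 1 and 6, and 1 and 5 calls. In shIMPA1 against shLuc, 1 gene was called without shLuc 1 and 5 were called without shIMPA1 1. In shIMPDH2 against shLuc, 1 was called without shLuc 1 or either shIMPDH2 library and 2 without shLuc 2. In shIMPDH2 against shIMPA1, 2 were called without either shLuc library and 1 without either shIMPDH2 library.

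S100A6, or calcyclin, binds CACYBP, a part of ubiquitin ligase complexes. It had 793 and 923 in shIMPA1, 420.5 and 502 in shIMPDH2, and 381 and 331 in shLuc. Both shIMPA1 libraries stood above the other 4. S100A6 rose 2.41-fold in shIMPA1 against shLuc (limma adjusted p = 0.000171, log2 fold change 1.27, SE 0.15), and fell 1.86-fold in shIMPDH2 against shIMPA1 (-0.90, SE 0.15, adjusted p = 0.00171). Against shLuc, shIMPDH2 was 1.30-fold as high and did not pass (log2 fold change 0.37, SE 0.15, limma adjusted p = 0.114). S100A6 passed in a limma fit of these 2 groups alone (adjusted p = 0.00973), where 6382 genes were called, against 3018 in the main fit. S100A6 also passed without either shIMPA1 library, where calls over all genes were more numerous as well. Among the 6 S100A genes its order of groups, shIMPA1 above shIMPDH2 above shLuc, was the order of S100P.

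S100A11 binds annexin A1 and takes part in membrane repair. It had 1980 and 2233 in shIMPA1, 1528 and 1459 in shIMPDH2, and 2661 and 2959 in shLuc. The shIMPDH2 libraries were lowest and no groups overlapped. S100A11 fell 1.88-fold in shIMPDH2 against shLuc (limma adjusted p = 0.000642, log2 fold change -0.91, SE 0.12), and this call held under every alternative tried. It fell 1.33-fold in shIMPA1 against shLuc (-0.42, SE 0.12, adjusted p = 0.0244) and 1.41-fold in shIMPDH2 against shIMPA1 (-0.49, SE 0.12, adjusted p = 0.0130). The shIMPA1 call was lost without either shLuc library (adjusted p = 0.0719 and 0.182) or either shIMPDH2 library (0.0591 and 0.0590), and the call between the knockdowns without either shIMPDH2 library (0.0806 and 0.130). GENCODE lists 8 processed pseudogenes of S100A11, none with a row in the table, and reads that also match one of them could have been dropped as not unique.

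S100A13 helps to export fibroblast growth factor 1 and interleukin 1 alpha, which lack a signal peptide. It had 1201 and 889 in shIMPA1, 1000.4 and 1146 in shIMPDH2, and 2218 and 1637 in shLuc. Both knockdowns lay below both shLuc libraries and overlapped each other. Against shLuc, S100A13 fell 1.84-fold in shIMPA1 (limma adjusted p = 0.00397, log2 fold change -0.88, SE 0.18) and 1.80-fold in shIMPDH2 (adjusted p = 0.00946, log2 fold change -0.83, SE 0.18). The difference of shIMPDH2 from shIMPA1 was 0.05 (SE 0.18, adjusted p = 0.858). Without shLuc 1, the higher control library, neither call against shLuc stood (adjusted p = 0.0684 for shIMPA1 and 0.141 for shIMPDH2), and the shIMPDH2 call was also lost without either shIMPDH2 library (0.112 and 0.0629). S100A13 overlaps S100A1 on the other strand and AL162258.1, a processed transcript, on its own strand, and both have rows in the table. Whether the libraries kept strand is not given in the sources used here, and reads in these overlaps cannot be told apart.

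S100A10 forms a complex with annexin A2 at the plasma membrane. It had 618 and 849 in shIMPA1, 529 and 419.5 in shIMPDH2, and 618 and 718 in shLuc. The shIMPA1 and shLuc libraries overlapped, and the shIMPDH2 pair lay below both. S100A10 fell 1.55-fold in shIMPDH2 against shIMPA1 (limma adjusted p = 0.0251, log2 fold change -0.62, SE 0.18). It did not pass in shIMPDH2 against shLuc (-0.50, SE 0.18, adjusted p = 0.0769) or in shIMPA1 against shLuc (0.12, SE 0.18, adjusted p = 0.643). The call between the knockdowns was lost without either shLuc library (adjusted p = 0.0525 and 0.0530) or either shIMPDH2 library (0.0557 and 0.237). In shIMPDH2 against shLuc, S100A10 passed without either shIMPA1 library (log2 fold change -0.50), and in shIMPA1 against shLuc without shIMPA1 1 (0.35). More genes were called over the whole table in these fits too.

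S100A4 binds non-muscle myosin IIA, encoded by MYH9, and is known as a metastasis-associated protein. It had 40.4 and 22.4 in shIMPA1, 10.4 and 13.5 in shIMPDH2, and 43.2 and 30.6 in shLuc. The shIMPDH2 libraries were lowest, and shIMPA1 and shLuc overlapped. S100A4 fell 3.09-fold in shIMPDH2 against shLuc (limma adjusted p = 0.0166, log2 fold change -1.54, SE 0.37) and 2.63-fold in shIMPDH2 against shIMPA1 (-1.28, SE 0.37, adjusted p = 0.0269). In shIMPA1 against shLuc the difference was -0.26 (SE 0.37, adjusted p = 0.626). These rest on few reads, 9 to 48 per library. The call against shLuc was lost without either shLuc library (adjusted p = 0.182 and 0.0804) or either shIMPDH2 library (0.117 and 0.0730). The call between the knockdowns was lost without shIMPA1 1 (0.0973), either shLuc library (0.0564 and 0.0540) or either shIMPDH2 library (0.149 and 0.0864), and with DESeq2 (0.0652). S100A4 overlaps S100A3, which had no row in the table, on the same strand.

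S100A2 is a nuclear S100 protein of basal epithelial cells that binds p53. It had 5.39 and 28.5 in shIMPA1, 21.9 and 29.2 in shIMPDH2, and 4.50 and 2.63 in shLuc, from 6 and 33, 19 and 26, and 5 and 3 reads. The high libraries were shIMPA1 2 and both of shIMPDH2, while shIMPA1 1 was near the shLuc pair. S100A2 rose 7.18-fold in shIMPDH2 against shLuc (limma adjusted p = 0.0193, log2 fold change 2.56, SE 0.64), a call lost without either shLuc library (adjusted p = 0.0967 and 0.160) or either shIMPDH2 library (0.0947 and 0.161). It met the filter, a value of 10 or more in 2 libraries, only through the shIMPDH2 pair and shIMPA1 2, while both shLuc libraries were below 10; with no filter the adjusted p was 0.0191. In shIMPA1 against shLuc it did not pass in limma (1.62, SE 0.64, adjusted p = 0.0777), but passed with edgeR (0.0442) and DESeq2 (0.0435). Without shIMPA1 1 that log2 fold change was 2.72 (adjusted p = 6.43e-06), and without shIMPA1 2 it was 0.52 (0.598). The difference of shIMPDH2 from shIMPA1 was 0.94 (SE 0.64, adjusted p = 0.302), was 2.04 without shIMPA1 2, where it passed (0.00817), and was -0.16 without shIMPA1 1 (0.846).

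KRT5 and KRT14, keratins of basal epithelial cells, were high and low in the same libraries as S100A2. KRT5 had 0 and 88.9 in shIMPA1, 79.7 and 84.4 in shIMPDH2, and 0.900 and 1.75 in shLuc. KRT14 had 1.80 and 54.4 in shIMPA1, 55.5 and 37.1 in shIMPDH2, and 0 and 0.875 in shLuc. KRT15 followed this less closely, with 10.8 and 26.7 in shIMPA1, 49.7 and 76.5 in shIMPDH2, and 0 and 3.50 in shLuc. Its shIMPA1 2 value lay below both shIMPDH2 libraries. The sum of KRT5, KRT14 and KRT15 was 12.6 and 170.0 in shIMPA1, 185 and 198 in shIMPDH2, and 0.900 and 6.13 in shLuc. Over the whole list of basal markers, 5 of 7 were listed and TP63 and KRT17 were not. The summed values, not divided by length, were 705 to 739 in shIMPA1, 845 to 850.2 in shIMPDH2 and 792 to 808 in shLuc. Most of each sum was DST, with 42341 bases of merged exons. Mean values per kilobase of DST were 14.0 in shIMPA1, 14.8 in shIMPDH2 and 16.8 in shLuc. In the same order, KRT5 had 10.4, 19.1 and 0.309, and KRT14 had 12.3, 20.3 and 0.192. KRT15 had 2.65, 8.92 and 0.248, and NGFR 9.18, 7.13 and 20.9. Of the 5 listed, 2 rose and 1 fell in shIMPA1 against shLuc, where 30.2% of all genes were called (14.0% higher and 16.2% lower). In shIMPDH2 against shLuc, 3 rose and 1 fell, where 17.0% of all genes were called (7.86% higher and 9.15% lower). The 3 that rose there were KRT5, KRT14 and KRT15 (log2 fold change 5.18, 5.08 and 4.88, limma adjusted p = 0.0313, 0.00782 and 0.000754). KRT14 and KRT15 were also called in shIMPA1 (3.18 and 3.09, adjusted p = 0.0395 and 0.00579). All 3 were below 10 in both shLuc libraries and met the filter only through libraries where they were high. Their calls therefore lend nothing to the counts of basal markers that rose. The KRT5 and KRT14 calls in shIMPDH2 were lost without either shLuc or either shIMPDH2 library (up to 0.206 and 0.103), that of KRT14 in shIMPA1 when any library other than shIMPA1 1 was left out (up to 0.356), and that of KRT15 in shIMPA1 without shLuc 1 (0.0559). NGFR, another basal marker, fell in both knockdowns against shLuc (log2 fold change -1.26 in shIMPA1 and -1.52 in shIMPDH2, limma adjusted p = 0.0159 and 0.0112), calls lost without either shLuc library and, for shIMPDH2, without either of its own (adjusted p up to 0.125 and 0.122). The part of basal-type cells in the S100A2 result was not tested.

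**Figure D2:**
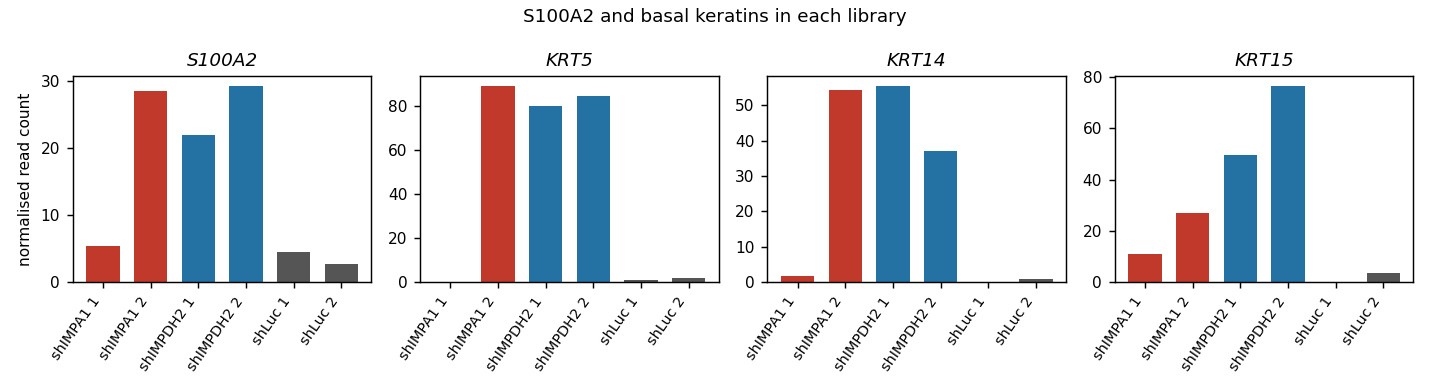
Normalised read count (y axis, from 0, a scale of its own per gene) of S100A2, KRT5, KRT14 and KRT15 in each of the 6 libraries. Each bar is 1 library; S100A2 is at 28.5 in shIMPA1 2 and at 5.39 in shIMPA1 1, and KRT5 at 88.9 and 0 in the same libraries.

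**Figure D3:**
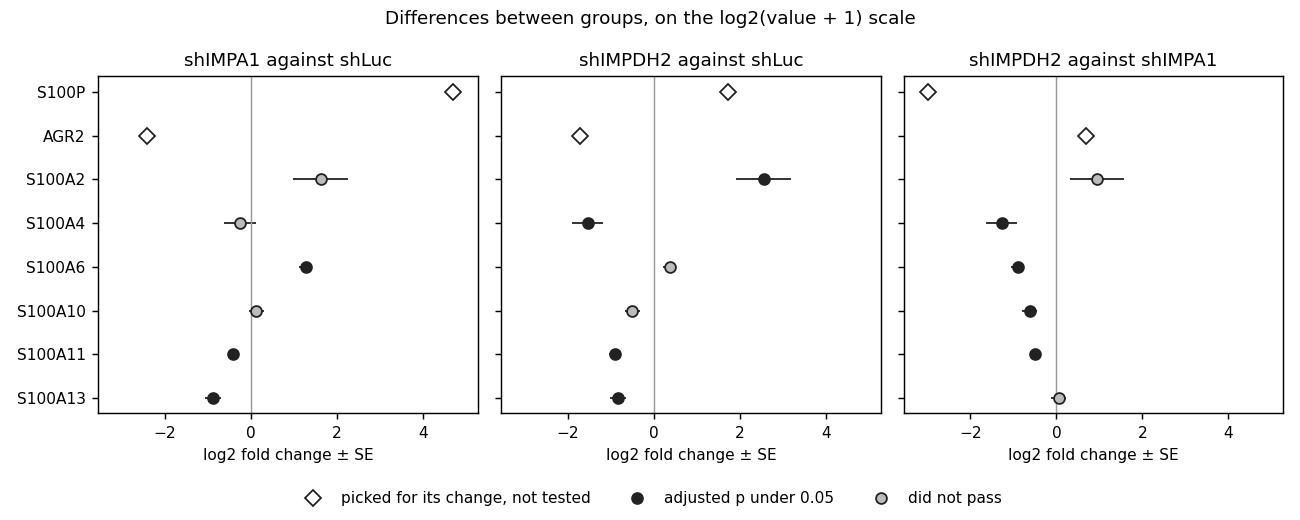
Log2 fold change with its SE (x axis, log2(value + 1) scale) of each gene in shIMPA1 against shLuc, shIMPDH2 against shLuc and shIMPDH2 against shIMPA1. Filled circles passed the limma threshold, grey circles did not and open diamonds were picked for their change and not tested; S100A11 lies left of 0 in all 3 panels, and S100A6 right of 0 in both panels against shLuc.

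Apart from the marker sums, which are not divided by length, levels of different genes were compared only per kilobase of merged exons. Orders, ranks and shares between genes depend on these lengths, 1280 bases for S100P and 2845 for AGR2. Which annotated transcripts the cells used was not tested. In shIMPA1, S100P led with 9392 ± 1875 normalised reads per kilobase, ahead of S100A11 with 3098 ± 263 and S100A6 with 884 ± 94.5 (SD, n = 2 each). S100A10 and S100A13 followed at 475 and 471 with overlapping libraries, then AGR2 at 67.5, S100A4 at 30.6 and S100A2 at 10.8. In shIMPDH2, S100A11 led with 2196 ± 72.4 and S100P was next with 1180 ± 141 (SD, n = 2 each). S100A13 and S100A6, at 484 and 475, overlapped there, followed by S100A10 at 307, AGR2 at 111, S100A2 at 16.3 and S100A4 at 11.7. In shLuc, S100A11 led with 4132 ± 310 normalised reads per kilobase, then S100A13 with 870 ± 185 (SD, n = 2 each) and S100A10 with 433. S100A6, AGR2 and S100P lay at 366, 363 and 358 per kilobase in shLuc, each overlapping its neighbour in that order, above S100A4 at 36.0 and S100A2 at 2.27.

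S100P made up most of the S100 transcripts in shIMPA1. Among the 8 S100 genes listed, S100A1 included, it held 63.1% and 67.2% of the summed reads per kilobase in shIMPA1, 23.5% and 26.8% in shIMPDH2, and 6.57% and 4.98% in shLuc. The share of S100A11 was 22.8% and 20.6% in shIMPA1, 49.0% and 44.9% in shIMPDH2, and 63.4% and 69.6% in shLuc. Ranked by reads per kilobase among 17750 genes, with 1 the highest, S100P stood at 101 and 73 in shIMPA1, 1133 and 1023 in shIMPDH2, and 3037 and 3873 in shLuc. AGR2 stood at 9944 and 9335 in shIMPA1, 8320 and 7170 in shIMPDH2, and 3053 and 3737 in shLuc. Neighbouring places in the shLuc order were thus shared by S100P and AGR2, and the widest separation was in shIMPA1. These shares and ranks carry the changes for which both genes were picked.

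**Figure D4:**
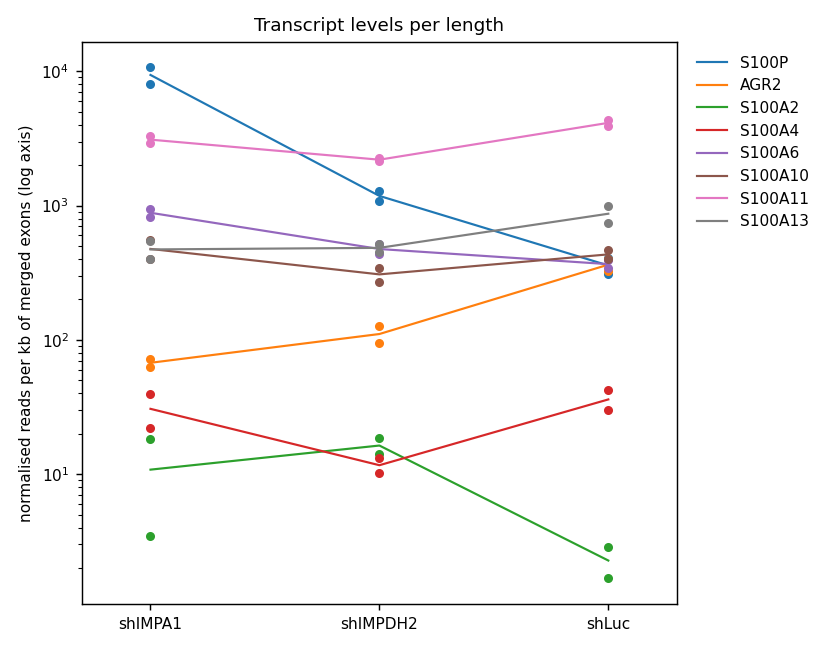
Normalised reads per kilobase of merged exons (y axis, log scale) of the 8 genes in shIMPA1, shIMPDH2 and shLuc. Points are libraries and lines join group means; S100P and AGR2 lie together in shLuc (358 and 363) and far apart in shIMPA1 (9392 and 67.5).

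Annexins are membrane-binding proteins, several of which bind S100 dimers. Of 9 tested, 1 rose and 3 fell in shIMPA1 against shLuc, 1 rose and 3 fell in shIMPDH2 against shLuc, and 2 rose in shIMPDH2 against shIMPA1, with median log2 fold changes of -0.18, -0.08 and 0.05. Over all genes tested, 30.2%, 17.0% and 26.1% were called in these comparisons. ANXA1, the partner of S100A11, had 26.0 and 33.6 in shIMPA1, 57.8 and 65.2 in shIMPDH2, and 255 and 179 in shLuc. Against shLuc, it fell in shIMPA1 (limma adjusted p = 2.38e-05, log2 fold change -2.81, SE 0.25) and in shIMPDH2 (adjusted p = 0.000775, log2 fold change -1.78, SE 0.25), and was higher in shIMPDH2 than in shIMPA1 (1.03, SE 0.25, adjusted p = 0.0115). ANXA9 and ANXA3 also fell in both knockdowns, ANXA7 rose in shIMPA1 and ANXA4 in shIMPDH2. The ANXA3, ANXA7 and ANXA4 calls were each lost without either shLuc library (adjusted p up to 0.194), as they were without shIMPA1 2 for ANXA3 in shIMPA1 and without either shIMPDH2 library for ANXA3 and ANXA4 in shIMPDH2. ANXA1 between the knockdowns was lost without either shIMPDH2 library (adjusted p up to 0.105). ANXA2, the partner of S100A10, had 54.7 and 66.4 in shIMPA1, 49.7 and 42.7 in shIMPDH2, and 57.6 and 56.9 in shLuc, and passed in no comparison. The 4 annexin calls of each knockdown became 2 without either shLuc library and, for shIMPDH2, without either of its own; between the knockdowns there was at most 1 call without a shLuc or shIMPDH2 library and there were 4 without shIMPA1 2.

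Among 16 tested receptors and binding partners of S100 proteins, 1 rose and 1 fell in each knockdown against shLuc and 1 rose in shIMPDH2 against shIMPA1, with median log2 fold changes of 0.07, 0.11 and 0.06. These are 2, 2 and 1 of 16, below the 30.2%, 17.0% and 26.1% called over all genes. CACYBP, the S100A6 partner, had 4698 and 4015 in shIMPA1, 7913 and 8570 in shIMPDH2, and 8002 and 7743 in shLuc. In shIMPA1, where S100A6 rose, CACYBP fell (limma adjusted p = 0.000728, log2 fold change -0.86, SE 0.13). MDM2, the ubiquitin ligase of p53, rose in shIMPA1 (0.86, adjusted p = 0.000693) and in shIMPDH2 (0.68, adjusted p = 0.00447), and SYT1, a synaptic calcium sensor, fell in shIMPDH2 (-1.17, adjusted p = 0.0431), all against shLuc. AGER, which encodes RAGE, had 190.3 and 141 in shIMPA1, 109.7 and 132 in shIMPDH2, and 148 and 146 in shLuc and was not called. S100PBP, a nuclear partner of S100P, and EZR, which encodes ezrin, were not called either. S100A1, the other S100 gene in the table, lay between 27.1 and 35.9 in all 6 libraries. FLG, 1 of 4 tested genes whose proteins begin with an S100 domain, rose in shIMPA1 against shLuc (0.44, adjusted p = 0.0236) and was lower in shIMPDH2 than in shIMPA1 (-0.74, adjusted p = 0.00195). Calls against shLuc were lost without either shLuc library for MDM2 in shIMPDH2, SYT1 and FLG, and also without shIMPDH2 1 for all 3 and shIMPDH2 2 for SYT1 and FLG (adjusted p up to 0.0852, 0.322 and 0.155). Counts of called partners became 5 in shIMPA1 against shLuc without shIMPA1 1, at most 1 in shIMPDH2 against shLuc without any 1 shLuc or shIMPDH2 library, and 3 and 4 between the knockdowns without shIMPA1 1 and shIMPA1 2.

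Of 22 other protein disulphide isomerases and oxidases, 5 rose and 4 fell in shIMPA1 against shLuc, 4 rose and 1 fell in shIMPDH2 against shLuc, and 8 rose and 3 fell in shIMPDH2 against shIMPA1. Over all genes 30.2%, 17.0% and 26.1% were called. The median log2 fold changes of the family were 0.01, 0.16 and 0.15. PDIA4 had 6601 and 6810 in shIMPA1, 14224 and 14853 in shIMPDH2, and 15505 and 13962 in shLuc, and fell in shIMPA1 against shLuc (limma adjusted p = 0.000122, log2 fold change -1.13, SE 0.13). PDIA6 fell with it in shIMPA1 (-0.59, adjusted p = 0.00636), while PDIA2 rose (0.98, adjusted p = 0.000908). In shIMPDH2 against shLuc, ERO1A, the oxidase that recharges these enzymes, fell (-0.79, adjusted p = 0.00137) and TXNDC12, a small relative of AGR2, rose (0.63, adjusted p = 0.0129). The PDIA6 call was lost without shLuc 2 (0.0778), and that of TXNDC12 without either shLuc or either shIMPDH2 library (up to 0.169). In shIMPA1 against shLuc, 4 and 3 of this family were called without shLuc 1 and shLuc 2, and 5 without either shIMPDH2 library. In shIMPDH2 against shLuc, fewer of the family were called without any 1 shLuc or shIMPDH2 library and more without either shIMPA1 library. Between the knockdowns, fewer were called without either shIMPDH2 library. Calls over all genes moved the same way in each of these fits. AGR3, the closest relative of AGR2, had no row in the table.

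Of 19 tested genes listed as receptors, clients and regulators of AGR2, 8 rose and 1 fell in shIMPA1 against shLuc, 6 rose and 2 fell in shIMPDH2 against shLuc, and 3 rose and 4 fell in shIMPDH2 against shIMPA1. Their median log2 fold changes were 0.35, -0.10 and -0.21, and the share called over all genes was 30.2%, 17.0% and 26.1%. SPDEF, an ETS factor of secretory epithelia, had 1481 and 1537 in shIMPA1, 3967 and 4015 in shIMPDH2, and 944 and 997 in shLuc. It rose in both knockdowns (log2 fold change 0.64 in shIMPA1 and 2.04 in shIMPDH2, limma adjusted p = 0.00189 and 1.61e-06), where AGR2 was lower. CREB3L1, a membrane-bound transcription factor of the endoplasmic reticulum, had 112 and 104 in shIMPA1, 76.2 and 57.4 in shIMPDH2, and 13.5 and 13.1 in shLuc. It rose in both as well (2.93 and 2.23, adjusted p = 2.21e-05 and 0.000236). ERN1, the stress sensor IRE1 alpha, had 993 and 1024 in shIMPA1, 351 and 272 in shIMPDH2, and 325 and 350.0 in shLuc, and rose in shIMPA1 against shLuc (1.58, adjusted p = 4.37e-05). Also in shIMPA1 against shLuc, the mucin gene MUC5AC (1.71, adjusted p = 8.72e-05) and the growth factor gene VEGFA (1.13, adjusted p = 0.000111) rose. LYPD3, a surface receptor of AGR2, and TFF2, a trefoil peptide gene, rose in shIMPDH2 against shLuc (2.09 and 1.47, adjusted p = 0.00612 and 0.00886). LYPD3 met the filter only through shIMPDH2, where it was high. Its calls therefore lend nothing to the 6 that rose against shLuc or the 3 that rose between the knockdowns. The same holds for counts below that include it. The LYPD3 call was lost without shLuc 1 or either shIMPDH2 library (up to 0.0891), and that of TFF2 without either shLuc library or shIMPDH2 2 (up to 0.127). In shIMPDH2 against shLuc, 2 and 4 genes of the list were called without shLuc 1 and shLuc 2, and 3 and 2 without shIMPDH2 1 and shIMPDH2 2.

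Of 11 luminal markers, 1 rose and 5 fell in shIMPA1 against shLuc, 4 rose and 2 fell in shIMPDH2 against shLuc, and 5 rose and none fell in shIMPDH2 against shIMPA1, beside 30.2%, 17.0% and 26.1% of all genes called. Of 6 listed fibroblast and smooth muscle markers, 5 were tested, and 3 fell in shIMPA1 and 2 in shIMPDH2, LUM in both (log2 fold change -2.55 and -3.80, limma adjusted p = 0.00162 and 0.000259). The LUM calls stood whichever library was left out. In shIMPA1, the calls of ACTA2 and COL3A1 were lost without either shLuc library, and that of ACTA2 also without shIMPA1 2. COL3A1 met the filter through shIMPDH2 2, at 10.1, and the shLuc libraries, where it was high. Without the shLuc libraries it would not have met the filter, so its call lends nothing to the 3 that fell. In shIMPDH2, that of COL1A1 was lost without either shLuc or either shIMPDH2 library (up to 0.151), so that LUM alone was left. The summed values of these markers were 323 to 455 in shIMPA1, 290.2 to 291 in shIMPDH2 and 612 to 633 in shLuc, and their part in the S100 and AGR2 values was not tested.

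Genes near S100P and AGR2 were read by position, a choice made after the values were known. Within 500 kilobases, 17 genes other than S100P were tested, of which 5, 3 and 5 were called in shIMPA1 against shLuc, shIMPDH2 against shLuc and shIMPDH2 against shIMPA1, near the 30.2%, 17.0% and 26.1% of all genes. The nearest, the long non-coding RNA LINC02481, ends 2.55 kilobases before S100P and had 21.5 and 21.6 in shIMPA1, 8.09 and 6.75 in shIMPDH2, and 5.40 and 4.38 in shLuc. Its log2 fold change was 1.94 in shIMPA1 against shLuc and -1.43 in shIMPDH2 against shIMPA1. It met the filter only through shIMPA1, where it was high, so no test is given for it. Both counts of 5 above include LINC02481, which lends nothing to them. MRFAP1L1, 10.5 kilobases on the other side, was not called in shIMPA1 against shLuc (0.34, limma adjusted p = 0.0826). Around AGR2, 3, 3 and 2 of 6 genes were called, a number too small to set beside those shares. TSPAN13, 7.28 kilobases away, rose in shIMPDH2 against shLuc (0.72, adjusted p = 0.00267, lost without shLuc 2 or shIMPDH2 2 with values up to 0.0619), where AGR2 was lower. SOSTDC1, 261 kilobases away, had 1.80 and 3.45 in shIMPA1, 5.78 and 5.62 in shIMPDH2, and 87.3 and 92.8 in shLuc, with log2 fold changes of -4.69 and -3.76 in shIMPA1 and shIMPDH2 against shLuc. It met the filter only through shLuc, where it was high, and no test is given for it. Both counts of 3 around AGR2 include SOSTDC1, which lends nothing to them.

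Likeness of pattern was measured as the root mean square difference between log2(value + 1) profiles over the 6 libraries, each centred on its own mean, among 13651 genes with a mean value of at least 50. Nearest to S100P were KCNG1 at 0.266, SMOC1 at 0.316, SLC5A8 at 0.355, NPHS1 at 0.436 and LBH at 0.461, where the median over all genes compared was 1.95. SMOC1 had 5044 and 8976 in shIMPA1, 1000.4 and 986 in shIMPDH2, and 192 and 204 in shLuc. Nearest to AGR2 were ANXA1 at 0.202, MME at 0.204, CAV1 at 0.231, CRISP3 at 0.240 and THBS1 at 0.242, with a median of 1.05 over all genes. Both medians depend on the size of the member's own change, for which it was picked. They set no scale for how near these genes are. MME, the membrane peptidase neprilysin, had 176 and 174 in shIMPA1, 236 and 231 in shIMPDH2, and 863 and 849 in shLuc. For S100A2, compared among 17491 genes with a mean of at least 10 as a choice made after its values were seen, WNT16 was nearest at 0.428. WNT16 had 17.1 and 68.2 in shIMPA1, 30.0 and 38.2 in shIMPDH2, and 9.0 and 7.88 in shLuc.

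**Figure D5:**
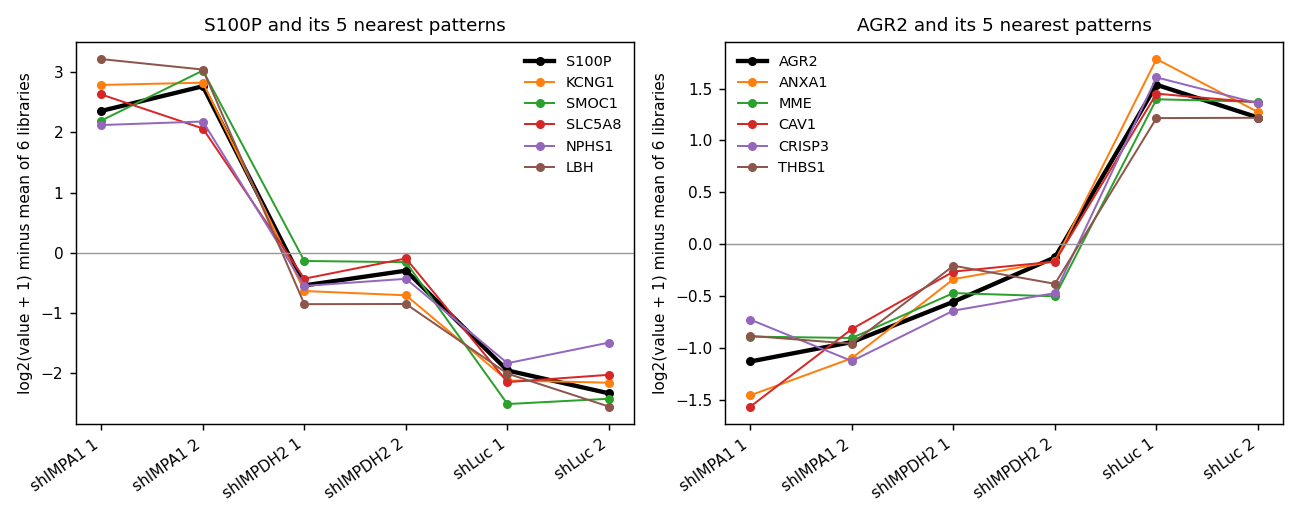
Log2(value + 1) minus the mean of the 6 libraries (y axis) for S100P (left) and AGR2 (right), each in black with the 5 genes nearest to it in colour, in the shIMPA1, shIMPDH2 and shLuc libraries. The genes were picked for this likeness; those beside S100P are highest in shIMPA1 and those beside AGR2 highest in shLuc.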

How the data were processed

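Each value describes 1 of 6 poly(A) RNA libraries. The tools, per the submitters' processing notes, were Trimmomatic 0.36, STAR 2.5.2b on GRCh38 and featureCounts from Subread 1.5.2. Per the labels' protocols, unique reads within exons were counted. Neither the annotation release nor the strandedness is given in the sources used here. The deposited signal values are counts after the authors' division by 1 size factor per library. Dividing them by what 1 read is worth gave whole reads for 99.98% to 100% of genes (tolerance 0.05 reads). The deposited log2 fold change and p-value columns of the authors belong to a comparison that the header does not name and were not used. Log2 fold changes here use log2(value + 1) and understate changes of low genes, while folds in words are ratios of group means.

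Because the file held normalised values, limma-trend (limma 3.58.1, R 4.3.3) was fitted to all 6 libraries, with 1 coefficient per group and 3 residual degrees of freedom. A gene needed a value of 10 or more in 2 or more libraries; 17742 genes, with all 8 listed members, met this and 69 did not. A call is a Benjamini-Hochberg adjusted p under 0.05 over all genes tested. SE is limma's moderated standard error. Alternatives included edgeR 4.0.16 and DESeq2 1.42.0 on the recovered reads. The fits were tested on simulated data. A table of gene names gave 16275 symbols and GENCODE release 29 a further 1475.

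The members and gene lists were chosen with earlier results of these data known. Named genes are the targets, the members, up to 4 called genes per list and comparison with the smallest adjusted p, levels of S100A1, ANXA1, ANXA2 and AGER, and the 5 nearest patterns. The other genes were chosen after their values were seen: S100PBP, EZR, the neighbours by position and the S100A2 pattern. Shares, ranks and levels from few reads carry counting error beside the spread between libraries.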

Additional observations from a re-analysis of the deposited data

How the results depend on the processing

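The log2 differences of S100P lay between 4.50 and 4.91 in shIMPA1 against shLuc, 1.54 and 1.92 in shIMPDH2 against shLuc, and -3.19 and -2.78 in shIMPDH2 against shIMPA1 when each library was left out in turn, and those of AGR2 between -2.57 and -2.26, -1.93 and -1.51, and 0.48 and 0.91. Of 281 values of the S100A genes under the alternatives, 228 kept their direction and their side of the threshold, 36 lost a call, 11 gained one and 6 changed sign, none of them a call. Of 1113 values of other named genes, the counts were 989, 119, 3 and 2. Both tallies include differences not called in the main fit, which had no call to lose.

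The number of S100A genes called was 3, 4 and 4 in shIMPA1 against shLuc, shIMPDH2 against shLuc and shIMPDH2 against shIMPA1. The 4 in shIMPDH2 against shLuc include S100A2, which lends nothing to that count or to others below that include it. Without a mean-variance trend the number of S100A genes called was 2 in each of the 3. It was 2 with the filter at 50 for shIMPDH2 against shLuc, since that filter removes S100A2 and S100A4, and 2 in a fit of the 2 knockdowns alone, while shIMPDH2 and shLuc fitted alone gave 6 and shIMPA1 and shLuc fitted alone gave 2. Leaving out a library gave 1 to 5, 1 to 6 and 1 to 5. Over all genes, calls numbered 3508, 1727 and 2909 without the trend, and 6382 for shIMPDH2 against shLuc fitted alone. Leaving out a library gave 2147 to 7940, 773 to 6386 and 1430 to 7052. Without the trend, the calls lost were S100A11 in shIMPA1 against shLuc (adjusted p = 0.0816), S100A2 and S100A13 in shIMPDH2 against shLuc (0.0765 and 0.0745), and S100A10 and S100A11 between the knockdowns (0.0987 and 0.0589). Fitting 2 groups alone ended S100A11 in shIMPA1 against shLuc (0.0582) and S100A10 and S100A4 between the knockdowns (0.0524 and 0.0594). The cause of these shifts was not tested.

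Leaving out a library changed the sign of some differences that had not passed: S100A10 in shIMPA1 against shLuc ranged from -0.11 to 0.35, S100A4 in shIMPA1 against shLuc from -0.67 to 0.15, S100A2 in shIMPDH2 against shIMPA1 from -0.16 to 2.04, S100A13 in shIMPDH2 against shIMPA1 from -0.17 to 0.27 and IMPDH2 in shIMPA1 against shLuc from -0.088 to 0.15. S100A13 in shIMPDH2 against shIMPA1 was -0.0010 with quantile normalisation. S100A2 had no value in shIMPA1 against shLuc fitted alone, where it did not pass the filter.

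Libraries with the same number did not deviate together (correlations over 14130 genes of 0.0741 for shIMPA1 and shLuc, -0.159 for shIMPDH2 and shLuc, and 0.00958 for shIMPDH2 and shIMPA1). With the number as a replicate block, 5298, 2939 and 4537 genes were called, and 3, 4 and 4 S100A genes. Rescaling by TMM or DESeq2 shifted libraries by at most 0.0111 (log2).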
